A study of Mus musculus with 14 samples.

Results

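10 glutathione transferase genes were followed in RNA of mouse adipose tissue: Gsto1, Gsta3, Gsta4, Gstm1, Gstm2, Gstp1, Gstt1, Gstk1, Mgst1 and Mgst3. They were chosen by gene name from the deposited table of 54955 gene symbols or unnamed IDs, and each of the 10 matched 1 row. The tissue came from C57BL/6 mice at postnatal week 21. One group of 7 libraries is labelled wild type (WT, replicates 3 to 9) and the other of 7 is labelled ko-dectin1 (KO, replicates 1 to 7), named for the fungal glucan receptor encoded by Clec7a. The labels name no treatment, fat depot, sex or targeted exon. Values are TPM, transcript abundances scaled by gene length and library total, so levels can be set side by side between genes.

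Glutathione transferases join the thiol of glutathione to reactive, often lipid-derived molecules, which makes these products soluble and ready for export. The alpha, mu, pi and theta classes are soluble enzymes, the omega class mainly removes glutathione from protein thiols and reduces dehydroascorbate, the kappa class sits in mitochondria and peroxisomes, and the microsomal enzymes (MAPEG proteins) sit in membranes. In fat, these enzymes are known for clearing aldehydes made by peroxidation of stored lipid, and Gstk1 is also known as DsbA-L, a protein that promotes the assembly of adiponectin.

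Clec7a was measured in all 7 KO-labelled libraries, at 4.02 to 10.5 TPM against 4.1 to 18.9 TPM in WT (limma adjusted p = 0.59). Its level does not separate the groups, and which exons were read is not known from a sum over the gene, so libraries are called by their labels. Adipocyte markers were high in every library (Adipoq, adiponectin, at 683 TPM or more). KO replicate 7 and WT replicates 4 and 7 nearly lacked B-cell transcripts, with Cd79a at 1.52 TPM or less, while the other 11 libraries had 177 TPM or more. Of the 7 markers of epididymal epithelium, Adam7, Lcn5 and Defb2 were at 0 in all libraries, and the 7 together reached at most 0.78 TPM. The adipocyte list had a median log2 fold change of -0.46 (11 of 14 lower in KO), beside -0.57 over the 10 transferases. Lists of other cells also had medians away from 0. They were 1.18 for B cells (10 of 10 higher in KO), 1.04 for T cells (10 of 10 higher) and 0.58 for hepatocytes (7 of 7 higher). Below 0 were macrophages at -0.36 (9 of 11 lower), progenitors at -0.53 (9 of 10 lower) and skeletal muscle at -1.70 (7 of 7 tested lower). Over all genes tested the median was 0.04, with 45.4% lower in KO. No gene of these cell lists passed the test. Fits with adipocyte, B-cell and hepatocyte markers are given beside the members' values, and the part of the other lists was not tested.

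All 10 transferases had a lower mean in the KO-labelled libraries, but none passed the test on its own. The test was limma on log2(TPM + 1) over 14719 genes (those reaching 1 TPM in 7 libraries or more), with Benjamini-Hochberg adjustment over all of them and a threshold of 0.05. It called 0 of the 10 members; over all genes it called 0.0204%, that is 3 genes, all lower in KO. The share of all tested genes with a lower KO value was 45.4%, and the median log2 fold change was -0.57 over the members against 0.04 over all genes. At an unadjusted p under 0.05 stood 4 of the 10 members (Gsto1, Gstm2, Gstt1 and Mgst1) and 1679 of all genes. Because these 10 genes were chosen with earlier results of these data known, and because they rise and fall together across libraries, their common direction is a description and not a separate test.

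Together the 10 genes took 0.200% ± 0.0774 of all TPM in the 7 KO-labelled libraries, where SD follows the mean, and 0.293% ± 0.0670 in the 7 WT libraries. The ranges overlapped, at 0.0981% to 0.337% in KO and 0.204% to 0.393% in WT. The microsomal enzyme Mgst1 alone made up 38.1% ± 4.4 of that sum in KO and 41.2% ± 2.8 in WT.

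The order of the members was led by Mgst1, at a mean of 1002 TPM over the 14 libraries. Gstp1 (411 TPM), Gstm1 (303 TPM), Mgst3 (216 TPM), Gstt1 (154 TPM) and Gstm2 (117 TPM) followed. Mgst1 stood above Gstp1 in 14 of 14 libraries, Gstm1 above Mgst3 in 14, Gstt1 above Gstm2 in 14, and Gstm2 above Gstk1 in 14. Gstp1 stood above Gstm1 in 11 libraries and Mgst3 above Gstt1 in 13. Gsto1 (81.8 TPM) stood above Gsta3 (52.9 TPM) in 13. Neighbours without a steady order were Gstk1 (86.8 TPM), above Gsto1 in 8 of 14 libraries, and Gsta3, above Gsta4 (43.9 TPM) in 6 of 14.

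**Figure D1:**
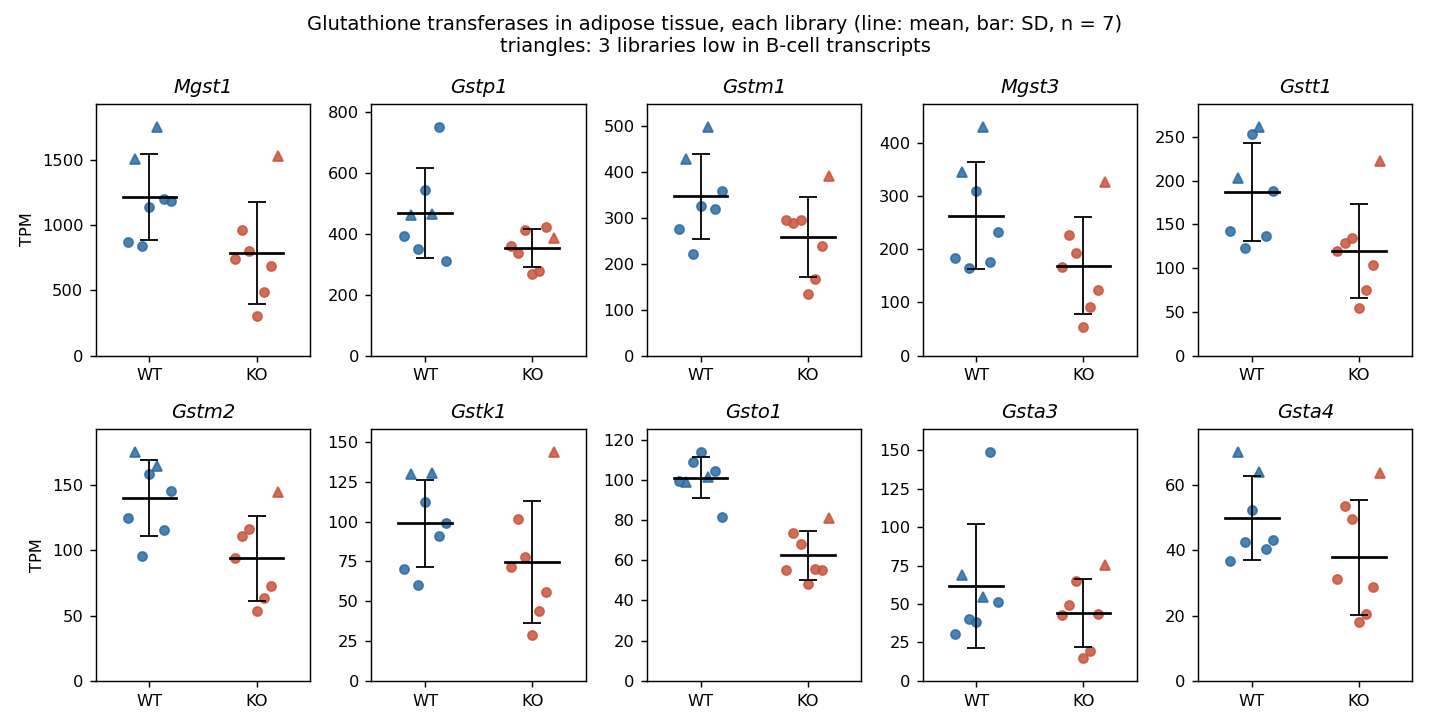
TPM (y axis, from 0) of each of the 10 transferases in the 7 WT and 7 KO-labelled libraries, with the group mean (line) and SD (bar); triangles mark the 3 libraries low in B-cell transcripts. Gsto1 is the one panel in which the groups do not overlap, with KO at 48.2 to 81.2 TPM and WT at 81.5 to 114 TPM.

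Gsto1 (ENSMUSG00000025068), the omega-class enzyme, differed most clearly between the groups. Its values in KO ran from 48.2 TPM (replicate 4) over a median of 55.4 to 81.2 TPM (replicate 7), and in WT from 81.5 TPM (replicate 9) over a median of 101 to 114 TPM (replicate 6). The groups did not overlap, although the nearest libraries, KO replicate 7 and WT replicate 9, were at almost the same level. KO libraries averaged 62.4 ± 12.03 TPM, or 61.7% of the WT mean of 101 ± 10.2 TPM (SD, n = 7 each). On the log2 scale this was -0.70 ± 0.13 (SE; 95% interval -0.97 to -0.43), and the limma adjusted p was 0.10, not past the threshold. By p, Gsto1 ranked 7 of 14719 genes. Groups did not overlap, with KO lower, in 0.211% of all tested genes, and in 1 of the 10 members. Without KO replicate 7 the difference passed the test (log2 fold change -0.77, limma adjusted p = 0.037). In the other 13 fits that left out 1 library it did not. Its neighbour on chromosome 19, Gsto2, stood at 2.16 ± 1.66 TPM in KO and 2.87 ± 0.81 TPM in WT, with overlapping groups.

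The level of Gsto1 varied least of the 10 members, by 2.36 times between its lowest and highest library, where Mgst3 varied by 7.90 times and Gsta3 by 10.2 times. Its promoter is set beside those of Gstk1 and Mgst3, the 2 members with the steepest common course across libraries, in the sequences that follow. Each runs 5′ to 3′ up to the annotated start, on GRCm38.p6 from RefSeq, with bases that GENCODE counts as exon left out. Capitals mark matches to the GC box GGGCGG, the general promoter element bound by Sp1, searched on both strands.
Gsto1, chr19:47854723-47854969, plus strand: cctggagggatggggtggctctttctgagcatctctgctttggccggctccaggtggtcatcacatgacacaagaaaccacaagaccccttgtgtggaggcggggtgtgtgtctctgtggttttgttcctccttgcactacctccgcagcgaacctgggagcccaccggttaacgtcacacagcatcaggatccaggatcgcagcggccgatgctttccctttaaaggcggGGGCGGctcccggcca
Gstk1, chr6:42245685-42245934, plus strand: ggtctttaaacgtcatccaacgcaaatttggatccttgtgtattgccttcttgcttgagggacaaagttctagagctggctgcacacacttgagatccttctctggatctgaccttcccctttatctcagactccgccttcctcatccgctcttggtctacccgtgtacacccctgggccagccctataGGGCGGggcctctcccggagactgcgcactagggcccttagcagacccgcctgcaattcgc
Mgst3, chr1:167393842-167394091, minus strand: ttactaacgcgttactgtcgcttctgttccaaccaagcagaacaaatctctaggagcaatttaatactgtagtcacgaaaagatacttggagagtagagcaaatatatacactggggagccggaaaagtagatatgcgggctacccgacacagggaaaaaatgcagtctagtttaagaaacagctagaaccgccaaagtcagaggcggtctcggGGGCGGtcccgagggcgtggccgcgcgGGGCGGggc
All 3 windows hold the GC box. Over all 250 bases, with exon bases kept, so do 32.7% of all 32851 promoter windows. The same holds for 5 of the 9 members with an entry (Gsto1, Gstp1, Gstk1, Mgst1 and Mgst3). For each member only the most upstream annotated start was used. The 32851 windows count every start entered, so the shares are not strictly alike. If cut where the first exon begins, the windows of Gstp1 and Mgst1 hold no GC box.

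The 2 microsomal members had some of the largest differences in mean. Mgst1 (ENSMUSG00000008540) is a conjugating enzyme and peroxidase of the endoplasmic reticulum and outer mitochondrial membrane. It ran from 306 over a median of 744 to 1534 TPM in KO and from 837 over 1184 to 1757 TPM in WT. Mgst3 (ENSMUSG00000026688), which also reduces lipid hydroperoxides, ran from 54.6 over 166 to 327 TPM in KO and from 165 over 233 to 431 TPM in WT. In both genes the groups overlapped, KO replicate 4 was the lowest library and KO replicate 7 stood far above the other KO-labelled libraries. The log2 fold changes were -0.73 ± 0.30 (SE) for Mgst1 and -0.75 ± 0.35 for Mgst3 (limma adjusted p = 0.40 and 0.44).

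Of the mu class, Gstm1 (ENSMUSG00000058135) and Gstm2 (ENSMUSG00000040562) lie in one gene cluster on chromosome 3. Gstm1 ran from 135 over 289 to 392 TPM in KO and from 221 over 327 to 499 TPM in WT (log2 fold change -0.45 ± 0.24 SE, limma adjusted p = 0.48). Gstm2 ran from 53.4 over 94.4 to 144 TPM in KO and from 95.4 over 145 to 175 TPM in WT (log2 fold change -0.62 ± 0.22 SE, limma adjusted p = 0.32). Both genes overlapped between groups and neither passed. Of the 50-base stretches in their GENCODE M21 transcripts, 19.9% for Gstm1 and 8.3% for Gstm2 also occur in transcripts of other genes (for Gstm1 mostly in the pseudogene Gstm2-ps1), so reads could be split between copies by the counting.

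The theta-class enzyme Gstt1 (ENSMUSG00000001663), which acts on small halogenated molecules, ran from 54.6 over 119 to 222 TPM in KO and from 123 over 189 to 262 TPM in WT. Its log2 fold change was -0.70 ± 0.27 (SE, limma adjusted p = 0.37). The fold change was as large as that of Gsto1, with an SE of 0.27 against 0.13. Gstk1 (ENSMUSG00000029864), the kappa-class enzyme and adiponectin assembly factor, ran from 28.6 over 71.3 to 144 TPM in KO and from 60.2 over 99.0 to 130 TPM in WT. Its log2 fold change was -0.52 ± 0.30 (SE, limma adjusted p = 0.53). Both genes overlapped between groups, and the highest Gstk1 value of all 14 libraries was in KO replicate 7.

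The alpha-class members act on lipid peroxidation products. Gsta4 (ENSMUSG00000032348), the enzyme best known for conjugating hydroxynonenal, ran from 18.1 over 31.2 to 63.6 TPM in KO and from 36.7 over 43.2 to 70.1 TPM in WT (log2 fold change -0.49 ± 0.27 SE, limma adjusted p = 0.50). Gsta3 (ENSMUSG00000025934) ran from 14.6 over 43.3 to 75.6 TPM in KO and from 30.5 over 51.3 to 149 TPM in WT (log2 fold change -0.48 ± 0.39 SE, limma adjusted p = 0.65). Both overlapped between groups, and the highest Gsta3 value was that of WT replicate 8 alone, 149 TPM against 68.6 TPM in the next WT library.

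Gstp1 (ENSMUSG00000060803), the pi-class enzyme, ran from 268 over 362 to 425 TPM in KO and from 310 over 463 to 754 TPM in WT, again with the highest value in WT replicate 8. Its log2 fold change was -0.37 ± 0.19 (SE, limma adjusted p = 0.47), the smallest of the 10. Gstp1 has a near copy: 51.0% of the 50-base stretches of its transcripts also occur in those of Gstp2, so their split is uncertain. The sum of Gstp1 and Gstp2 averaged 373 ± 68.9 TPM (SD) over KO and 492 ± 151 TPM over WT libraries, with ranges of 275 to 452 TPM and 339 to 776 TPM that also overlapped. None of the transcripts of Gsto1, Gsta3, Gsta4, Gstt1, Gstk1, Mgst1 and Mgst3 shared a 50-base stretch with another gene.

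**Figure D2:**
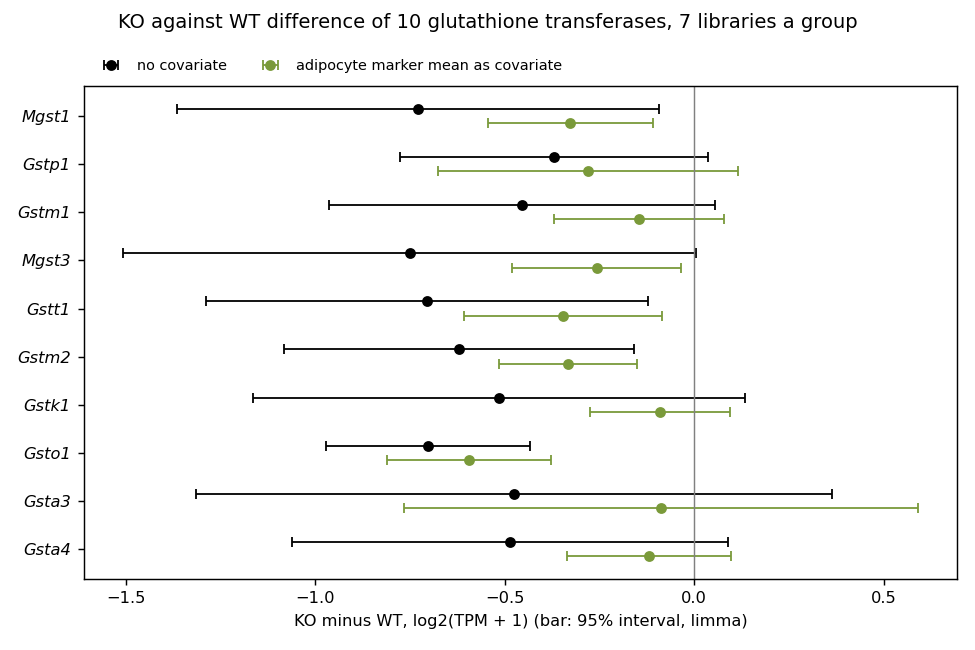
KO minus WT difference on the log2(TPM + 1) scale (x axis) for each transferase (y axis, ordered by level), with its 95% interval from limma, without a covariate (black) and with the adipocyte marker mean as covariate (green). Without the covariate every point lies below 0, from -0.75 for Mgst3 to -0.37 for Gstp1. With it, Gsto1 lies at -0.59, against -0.70 without, while Gstk1 and Gsta3 lie at -0.09.

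Most of the members followed the adipocyte transcripts of each library. The mean log2(TPM + 1) of 14 adipocyte markers was 9.04 ± 0.76 (SD) over the 7 KO-labelled libraries and 9.46 ± 0.37 over the 7 WT libraries. Summed, the 14 markers ran from 14898 to 66079 TPM in KO and from 35419 to 68100 TPM in WT. KO replicate 4 had the lowest marker mean (7.86) and the lowest value of all 14 libraries in 10 of 10 members. KO replicate 7 had the highest marker mean (10.1) and the highest KO value in 9 of 10 members, all but Gstp1. In bulk tissue, fewer adipocytes and less of a transcript per adipocyte cannot be told apart.

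With this marker mean and the group fitted together, the level rose with the marker mean in 9 of 10 members (limma adjusted p under the threshold); over all tested genes 21% rose in this way. The slope, in log2 units of the gene for each log2 unit of the marker mean, was 1.16 ± 0.09 (SE) for Mgst3, 1.00 ± 0.07 for Gstk1 and 0.95 ± 0.09 for Mgst1. It was 0.25 ± 0.09 for Gsto1 (adjusted p = 0.026) and 0.21 ± 0.16 for Gstp1, the member that did not pass (adjusted p = 0.28). In the 11 libraries with B-cell transcripts, 7 of 10 members rose, where 6.25% of all genes did. Gsto1, Gsta3 and Gstp1 then did not pass (adjusted p = 0.20, 0.10 and 0.44).

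In the same fit with the adipocyte covariate, Gsto1 was lower in KO and passed the test, at a log2 difference of -0.59 ± 0.10 (SE, limma adjusted p = 0.028). It was the only member called, and 0.136% of all tested genes were called lower in this fit. Without the 3 libraries low in B-cell transcripts the difference was -0.66 ± 0.13 and no longer passed (limma adjusted p = 0.16). In 14 libraries all 10 members, Gsto1 included, had smaller differences with the covariate than without it. The 9 members other than Gsto1 lay between -0.35 for Gstt1 and -0.09 for Gsta3, and none of these passed. The median of all 10 was -0.27 with the covariate against -0.57 without. At the level of single libraries, KO replicate 7 had the highest adipocyte marker mean of all 14. Its Gsto1 value, 81.2 TPM, was the highest of KO and just below the lowest of WT (81.5 TPM, replicate 9). KO replicate 4 had the lowest marker mean of all 14 (7.86) and the lowest Gsto1 value (48.2 TPM). WT replicate 5 had the lowest marker mean of its group (8.97) and Gsto1 at 109 TPM. That the slope or the group difference of Gsto1 differs from that of the other members was not tested.

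The B-cell marker mean ran the other way. Fitted beside the group, it had 7 of 10 members falling as it rose (all but Gsto1, Gsta3 and Gstp1, by limma adjusted p), where 13.7% of all tested genes fell. The slope was -0.21 ± 0.05 (SE) for Mgst3 and -0.04 ± 0.03 for Gsto1. Without the 3 libraries low in these transcripts, a fit added after the data were seen, 2 of 10 members fell, Gsta4 and Gstk1, against 1.08% of all genes. With this covariate the KO-minus-WT difference of Gsto1 was -0.66 ± 0.12 (limma adjusted p = 0.0501), just short of the threshold, and -0.70 ± 0.12 in the 11 libraries (limma adjusted p = 0.071). The median of the 10 members was -0.42 in 14 libraries and -0.43 in 11.

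**Figure D3:**
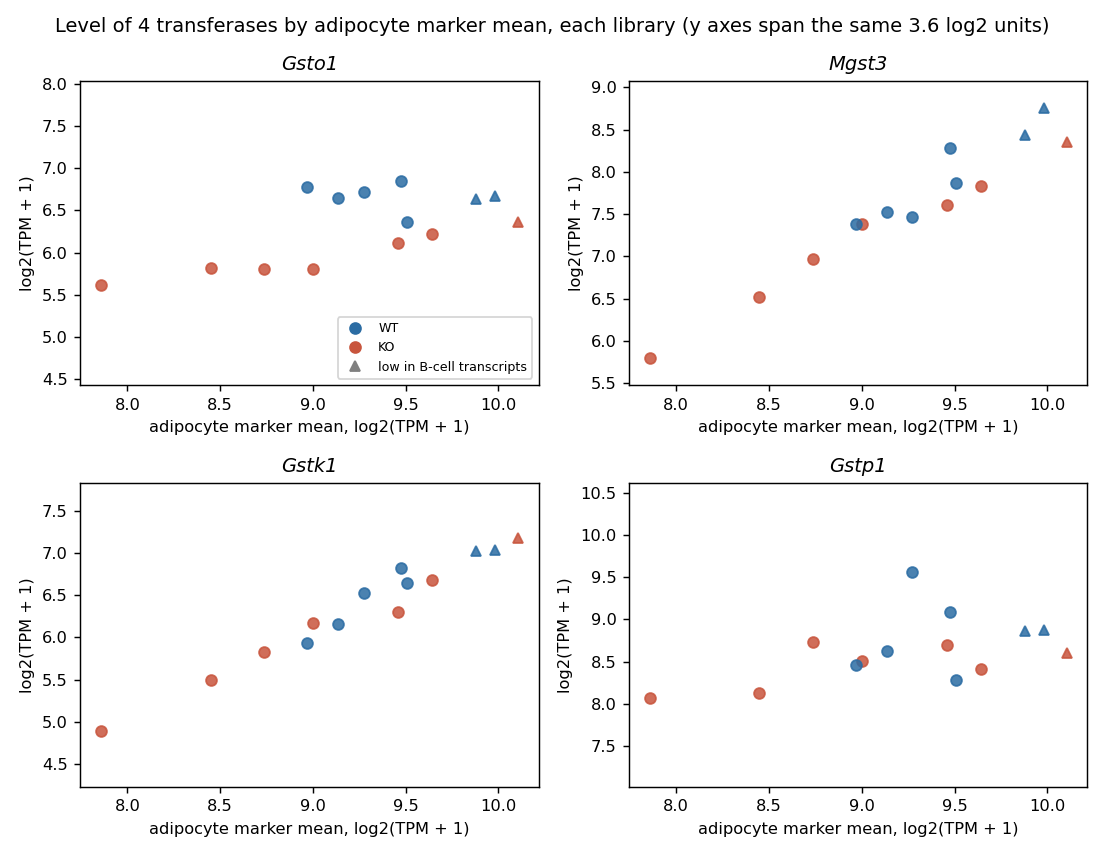
Level of Gsto1, Mgst3, Gstk1 and Gstp1 as log2(TPM + 1) (y axes of equal span) against the adipocyte marker mean on the same scale (x axis) in the 14 libraries, WT in blue and KO in red, triangles for the 3 libraries low in B-cell transcripts. Mgst3 and Gstk1 climb with the marker mean, with slopes of 1.16 and 1.00, and at equal marker mean the KO-minus-WT difference was -0.26 for Mgst3, -0.09 for Gstk1 and -0.59 for Gsto1, whose KO points all lie below the WT points.

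The genes whose course was most like that of a member were sought by Pearson r of log2(TPM + 1) over the 14 libraries with the group means taken out. The points share the contrast between the 3 libraries low in B-cell transcripts and the rest, so r is given as a description only. Gstk1 was most like Cmbl (r = 0.99), Serpina3c (0.99) and the lipid droplet gene Cidec (0.985). Mgst1 was most like Podn, the growth hormone receptor Ghr and Irs3 (0.992, 0.989 and 0.98), and Gsta4 most like Clybl, Hebp1 and the fatty acid oxidation enzyme Decr1 (0.99, 0.98 and 0.98). Mgst3 was most like Fcgrt, Cmbl and Ccdc3 (0.987, 0.987 and 0.981), and Gstt1 most like Dynlrb1, Hrct1 and Grina (0.974, 0.972 and 0.968). For Gstm1 the nearest were Ehd2, Slc25a23 and Cyp2d22 (0.978, 0.97 and 0.967), and for Gstm2 Hoxa7, Ogfod3 and Ccdc3 (0.976, 0.975 and 0.971). Gsta3 had Gstm6, Reep6 and Tlcd2 nearest (0.934, 0.929 and 0.921). Gstp1 had Pemt, Apoc1 and Sardh (0.909, 0.889 and 0.888), all of them genes known for high expression in liver. Gsta3 and Gstp1 were both highest in WT replicate 8, the library richest in hepatocyte markers. The weight of that library in their r values was not tested. The genes nearest to Gsto1 were Npc2, a lysosomal cholesterol carrier, Nt5m and Smdt1, with lower values (0.916, 0.899 and 0.887). Among the members themselves, the median r with the other 9 was 0.634 for Gsto1, 0.66 for Gsta3 and 0.427 for Gstp1, and 0.878 to 0.945 for the other 7.

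Gsta3 and Gstp1, the members with their highest value in WT replicate 8, were set beside liver transcripts. The 7 hepatocyte markers summed to 35.0 to 2276 TPM in KO and 18.6 to 5288 TPM in WT. WT replicate 8 held the most, with albumin (Alb) at 2153 TPM against at most 879 TPM (KO replicate 6) elsewhere. In a fit beside the group, 0 of 10 members rose with the hepatocyte marker mean, against 0.605% of all genes. The slopes of Gsta3 and Gstp1 were the 2 above 0, at 0.16 ± 0.08 and 0.08 ± 0.04 (SE, limma adjusted p = 0.72 for each). Both genes were picked for their value in WT replicate 8, the library richest in these markers. The sign of their slopes is therefore no separate test. KO replicate 6, next in hepatocyte markers, had the highest Gstp1 value of its group (425 TPM) and Gsta3 at the group's median (43.3 TPM). Without WT replicate 8 the log2 fold change was -0.24 for Gsta3 and -0.25 for Gstp1, against -0.48 and -0.37 with it. In the fit with hepatocyte markers the differences were -0.56 ± 0.36 for Gsta3 and -0.41 ± 0.18 for Gstp1 (limma adjusted p = 0.61 and 0.46).

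**Figure D4:**
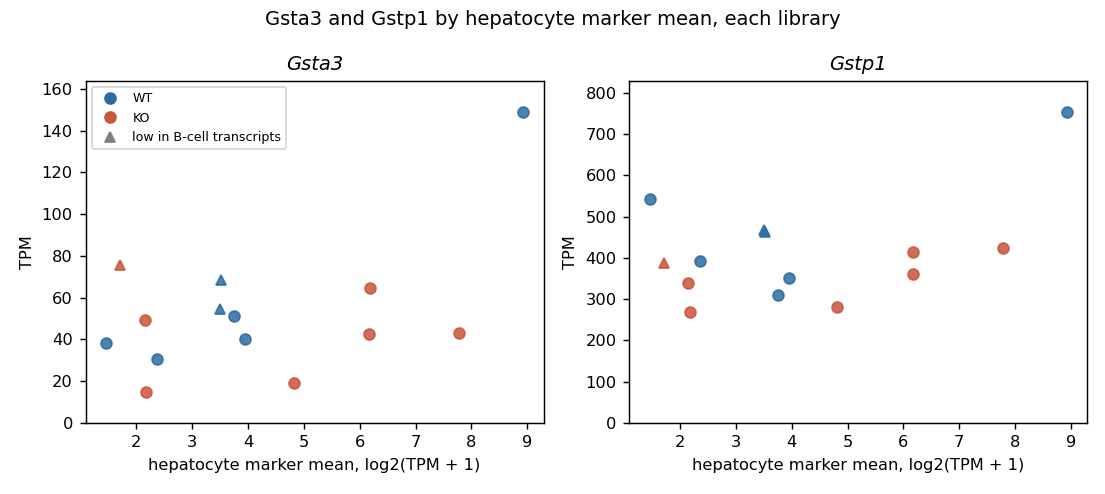
TPM (y axes, from 0) of Gsta3 and Gstp1 against the hepatocyte marker mean in log2(TPM + 1) (x axis) in the 14 libraries, WT in blue and KO in red, triangles for the 3 libraries low in B-cell transcripts. WT replicate 8 lies alone at the upper right, at 149 TPM for Gsta3 and 754 TPM for Gstp1, and KO replicate 6, next in hepatocyte markers, is the highest KO library for Gstp1 (425 TPM) and at the KO median for Gsta3 (43.3 TPM).

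NRF2, the transcription factor that answers oxidants, is known to drive several of these genes through antioxidant response elements. Its core, TGACNNNGC, and the related TGANTCAGC were searched on both strands of the 250 bases before the annotated start. The patterns overlap: some sequences match both. The first was found in Gsta3 and Mgst1, 2 of 9 members with an entry, and in 10.2% of all promoter windows, and the second in Gstp1 and in 1.0% of all windows. As for the GC box, only the most upstream start of each member was searched, while the shares over all windows count every start entered. All 250 bases were searched, including those that GENCODE counts as exon. If cut where the first such exon begins, the window of Mgst1 ends before its match. That of Gstp1 then ends within its match. The 3 matches are shown with 10 bases on each side, capitals marking the match. That of Mgst1 lies on the opposite strand.
Gsta3, chr1:21240454-21240482, plus strand: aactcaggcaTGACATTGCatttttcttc
Gstp1, chr19:4037968-4037996, minus strand: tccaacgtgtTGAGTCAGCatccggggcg
Mgst1, chr6:138140461-138140489, plus strand: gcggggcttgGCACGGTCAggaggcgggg
Neither pattern was found in the window of Gsto1, and these letters describe the window alone.

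Of 21 genes listed as NRF2, its partners and its targets outside the glutathione genes, 19 had lower and 2 higher values in KO (median log2 fold change -0.25), and 0 passed the test. Over all tested genes, 45.4% had lower values in KO. Groups did not overlap, with KO lower, in 1 of the 21 and in 0.211% of all tested genes. Sqstm1, the autophagy receptor p62, stood at 169 ± 23.5 TPM in KO and 268 ± 35.6 TPM in WT with no overlap (log2 fold change -0.66 ± 0.12 SE, limma adjusted p = 0.10). The carbonyl reductases Cbr3 and Cbr1 had log2 fold changes of -0.62 ± 0.16 and -0.43 ± 0.15 (limma adjusted p = 0.22 and 0.31). The ferritin chains Fth1 and Ftl1, the most abundant of the list, stood at 3033 ± 635 against 4071 ± 447 TPM and at 2729 ± 290 against 3411 ± 418 TPM, and neither passed (limma adjusted p = 0.34 and 0.41). Tkt and Taldo1, of the pentose phosphate pathway, had values of 0.05 ± 0.35 and -0.16 ± 0.20.

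Of 23 other transferases and MAPEG proteins listed, 22 were in the table and 18 were tested, 13 with lower and 5 with higher values in KO, and 0 passed (median log2 fold change -0.19). The share with lower values over all tested genes was 45.4%. Gstz1, which isomerises maleylacetoacetate in tyrosine breakdown and was the most abundant of them, stood at 429 ± 225 TPM in KO and 683 ± 174 TPM in WT (log2 fold change -0.81 ± 0.31 SE, limma adjusted p = 0.37). Its lowest library was KO replicate 4, lowest in adipocyte markers, and its highest KO library was replicate 7, highest in them. Beyond a count of genes called, fits with the adipocyte covariate are not given for this list, the NRF2 list or the glutathione list that follows. Gstt3 and Gstm6 had log2 fold changes of -0.71 ± 0.28 and -0.60 ± 0.25, Gstm5 of -0.52 ± 0.26 and Gstt2 of -0.18 ± 0.19 (limma adjusted p = 0.39, 0.41, 0.46 and 0.70). Ltc4s, the leukotriene synthase of this superfamily, was at 114 ± 51.5 TPM in KO and 99.7 ± 17.4 TPM in WT. Gstp3, named after its values were seen, took the opposite course to most members: it was at 0.38 to 0.99 TPM in the 3 libraries low in B-cell transcripts and at 10.9 to 38.2 TPM in the other 11.

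Of 38 genes that make, recycle, use or export glutathione, 37 were tested, 30 with lower and 7 with higher values in KO (median log2 fold change -0.29), and 1 passed. Over all tested genes, 45.4% had lower values in KO and 0.0204% passed. The gene of this list that passed was Nnt, which makes NADPH in mitochondria, at 6.00 ± 0.85 TPM in KO and 15.2 ± 4.1 TPM in WT (log2 fold change -1.18 ± 0.17 SE, limma adjusted p = 0.031). Nnt is the sum of 2 rows and did not pass with the rows taken as deposited (limma adjusted p = 0.21). With 1 library left out at a time it passed in 3 of 14 fits, those without KO replicate 4, KO replicate 7 or WT replicate 6, and its limma adjusted p ran from 0.0046 to 0.12. A difference in C57BL/6 breeding background between the groups was not tested. In this design it cannot be told apart from the KO label, for Nnt or for any other gene. Glutathione synthetase (Gss) stood at 12.5 ± 1.9 against 16.8 ± 2.7 TPM, and Esd, which releases glutathione from its formaldehyde adduct, at 150.2 ± 15.9 against 184 ± 13.0 TPM (limma adjusted p = 0.27 and 0.29, not passed). The peroxidases Gpx3, Gpx4 and Gpx1, which spend glutathione on peroxides and were the most abundant of the list, had log2 fold changes of -0.65 ± 0.30, -0.16 ± 0.23 and -0.30 ± 0.16 (limma adjusted p = 0.43, 0.77 and 0.49). Malic enzyme (Me1), another NADPH source, stood at 301 ± 267 TPM in KO and 194 ± 84.8 TPM in WT.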

How the data were processed

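RNA of 14 adipose samples was sequenced from TruSeq libraries made from total RNA, per the labels' protocols. The authors deposited 1 table of 56552 rows with TPM values per library at 2 decimals, their mean of each group, and a gene length (an other value, not used). Bowtie 0.12.2 and the builds mm8 and mm9 are named in the submitters' processing notes with no role; the program behind the TPM values, the annotation and the handling of strand and shared reads are in none of the sources used here. TPM keeps no read depth, so no counting interval is given, and as a share of a fixed total it falls when other classes rise. P-values rest on the spread between libraries, each taken as 1 mouse.

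Rows with the same symbol were summed. Differences between KO and WT were tested with limma 3.58.1 (trend, robust, 2-sided; R 4.3.3) on log2(TPM + 1), a scale that understates changes of low genes; the fit was checked on simulated data. Covariates were means of log2(TPM + 1) over marker lists. From other lists, the 4 genes with the highest mean and the 3 with the smallest p are named, and for members the 3 genes of highest r. The members and lists were chosen with earlier results of these data known. Alternatives covered pseudocount, filter, scaling, summing, weights, covariates and libraries left out. Count models were not used, since TPM values are not counts. Promoter coordinates refer to RefSeq's GRCm38.p6 only, not to the build of the deposited values.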

Additional observations from a re-analysis of the deposited data

Results flagged for a closer look

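Gsta3 in WT replicate 8, at 149 TPM, lay farther from the other WT libraries than Dixon's test allows at its 95% level, with a gap to the next library of 0.68 of the group's range. The test was run on each group for each of the 10 transferases, 20 groups in all, where chance flags about 1 in 20.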

How the results depend on the processing

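All 10 members kept a lower KO value in each of 30 alternative fits, so 300 of 300 differences were below 0. The fits reuse the same libraries and most members rise and fall together, so the 300 are not separate observations. Of the 300, 3 passed the test, all of Gsto1. The count of members called went from 0 to 1 with the adipocyte covariate and to 1 with library weights, and was 0 to 1 when single libraries were left out. The median difference of the members lay between -0.72 (without KO replicate 7) and -0.27 (adipocyte covariate), and was -0.42 without KO replicate 4. Gsto1 lay between -0.78 and -0.59, with adjusted p between 0.0042 (library weights) and 0.51.

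The count over all genes, 3 with 0 higher and 3 lower, was less stable. It was 1 with no filter, 1 with rows as deposited, 6 (2 higher, 4 lower) without mitochondrially encoded genes, 8 (3 higher, 5 lower) with median-ratio scaling, 19 (13 higher, 6 lower) with quantile normalization, 27 (7 higher, 20 lower) with the adipocyte covariate and 823 (248 higher, 575 lower) with library weights. It was 0 without the 3 libraries low in B-cell transcripts, where 1502 genes had an unadjusted p under 0.05, and 0 to 6 when single libraries were left out. Of the other lists' genes, 1 was called at first. That count was 0 with no filter, 0 with rows as deposited, 0 without the 3 libraries, 4 with the adipocyte covariate, 20 with library weights, and 0 to 1 with single libraries left out. The cause was not tested. The hepatocyte covariate and the adipocyte and B-cell fits in 11 libraries were added after the data were seen.

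Replicate numbers 3 to 7 occur in both groups, in 10 libraries. Same-numbered libraries did not all deviate together (r from -0.672 to 0.803 over 5 pairs, 2 of 5 best matched by their own number). The highest r was that of number 7, low in B-cell transcripts in both groups, and the lowest that of number 4, low in WT only. The values therefore cannot decide whether the numbers are pairs. In those 10 libraries 0 genes were called with the replicate block and 0 with no replicate block, and 0 genes of the other lists in either; Gsto1 was at -0.77 with the block (adjusted p = 0.49). With depth unknown, what low values can show is limited.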
